A study of Mus musculus with 6 samples.

Results

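Kit, its ligand Kitl and 7 genes for surface and secreted proteins of the luminal progenitor cells of the mammary gland (Cd14, Lcn2, Ltf, Slpi, Cp, Slc5a8 and Sftpd) were followed in tumour spheres of MMTV-Neu mice. The set was proposed with earlier results of these libraries known, so its values are given as a description. The 9 genes were taken by symbol from 19893 symbols with a count in all 6 libraries, and all 9 were found. Where a symbol had several transcripts, the one kept was selected on its mean count, the highest over the 6 libraries, a choice that does not use the groups. Each library held RNA from spheres, floating clusters that single cells of digested tissue form on plates to which they cannot attach. All mice were of the FvB strain and carried the MMTV-HER2/Neu transgene, in which a viral promoter active mainly in mammary epithelium drives the Neu (ErbB2) oncogene. The 3 early lesion (EL) libraries came from mice of 14 to 18 weeks with no palpable tumour, and the 3 primary tumour (PT) libraries from mice older than 20 weeks with tumours. All spheres were grown for 7 days in mammosphere medium. There was no group without the transgene and no treatment. Age and tumour stage change together between the groups and cannot be told apart. The labels do not say whether the libraries of a group are from separate mice, so a p-value measures the spread between these libraries only, which may be technical.

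The luminal layer of the mammary gland holds progenitor cells that can give rise to milk-secreting alveolar cells, and hormone-sensing cells that carry the oestrogen and progesterone receptors. Kit is a receptor tyrosine kinase that is high on the progenitors, and Kitl (stem cell factor) is its ligand, made by many cell types as a membrane-bound or shed protein. The other genes code for proteins of mucosal defence and metal handling that enter milk or sit at the cell surface: lipocalin 2 takes up bacterial siderophores, lactoferrin binds iron, Slpi inhibits neutrophil elastase, ceruloplasmin is a copper ferroxidase, Cd14 presents lipopolysaccharide to Toll-like receptor 4, Slc5a8 carries monocarboxylates with sodium, and Sftpd is a collectin that binds microbial sugars.

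The bases before the start of transcription are shown for Kit and Slc5a8, which had large changes, and for Lcn2, Ltf and Slpi, the defence proteins, since all of these genes moved in 1 direction in the comparison that follows. They are from the RefSeq promoter table of build GRCm38.p6, the assembly that mm10 names. Entries of 7 of the 9 genes were used, and none of Cd14 or Sftpd. Each line holds the 250 bases before the start, 5′ to 3′ on the strand of the gene. Capitals mark matches to 1 of 7 motifs searched on both strands. The STAT5 motif was TTCNNNGAA, held by 7.02% of all windows, and the C/EBP motif was TTGCNNAA. The AP-1 motif was TGANTCA (6.75% of windows) and that of ETS factors was GGAAGT. RUNX was searched as TGTGGT (14.0%). The TATA box was searched as TATAAA (12.4%). For NF-kB the search was for GGGA and TTCC with any 2 bases between them.
Kit (chr5:75574737-75574986, plus strand): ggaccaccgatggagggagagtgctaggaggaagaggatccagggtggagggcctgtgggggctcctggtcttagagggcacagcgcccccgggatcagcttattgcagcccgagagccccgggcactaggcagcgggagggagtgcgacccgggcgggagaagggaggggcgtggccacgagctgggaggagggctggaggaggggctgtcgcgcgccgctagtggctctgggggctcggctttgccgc
Slc5a8 (chr10:88885742-88885991, plus strand): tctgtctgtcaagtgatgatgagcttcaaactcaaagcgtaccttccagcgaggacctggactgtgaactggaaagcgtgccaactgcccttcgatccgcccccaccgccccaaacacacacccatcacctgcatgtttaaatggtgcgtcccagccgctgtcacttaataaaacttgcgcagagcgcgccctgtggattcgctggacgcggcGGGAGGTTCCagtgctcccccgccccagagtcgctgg
Lcn2 (chr2:32387740-32387989, minus strand): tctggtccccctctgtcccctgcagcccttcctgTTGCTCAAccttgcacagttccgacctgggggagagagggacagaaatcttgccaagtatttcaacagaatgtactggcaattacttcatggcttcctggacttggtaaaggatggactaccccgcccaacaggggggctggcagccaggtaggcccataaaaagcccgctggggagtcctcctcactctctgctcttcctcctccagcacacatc
Ltf (chr9:111019042-111019291, plus strand): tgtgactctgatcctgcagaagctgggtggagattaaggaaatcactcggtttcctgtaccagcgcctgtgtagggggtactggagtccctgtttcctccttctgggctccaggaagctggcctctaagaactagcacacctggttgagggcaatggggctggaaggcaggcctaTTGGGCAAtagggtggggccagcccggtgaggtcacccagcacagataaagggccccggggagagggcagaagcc
Slpi (chr2:164356508-164356757, minus strand): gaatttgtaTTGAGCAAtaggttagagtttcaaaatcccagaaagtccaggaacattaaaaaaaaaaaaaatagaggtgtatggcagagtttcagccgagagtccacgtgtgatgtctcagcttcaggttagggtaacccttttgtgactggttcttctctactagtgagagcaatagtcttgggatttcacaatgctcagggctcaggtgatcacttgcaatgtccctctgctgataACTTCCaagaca

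A C/EBP match stood in the Lcn2, Ltf and Slpi windows, against 9.56% of the 32851 windows of the table. It lay 216 to 209 bases before the start of Lcn2 (TTGCTCAA), 75 to 68 bases before that of Ltf and 241 to 234 bases before that of Slpi, the latter 2 on the opposite strand. In Slpi an ETS match stood 12 to 7 bases before the start (19.7% of all windows hold one). The Slc5a8 window held an NF-kB match (GGGAGGTTCC, 37 to 28 bases before the start; 1.21% of windows) and the Kit window held none of the 7. Of the windows not shown, that of Kitl, the gene with the smallest change, held an NF-kB match 152 to 143 bases before the start and a TATA match. Of the windows of Cp, one held an AP-1 match and another a C/EBP match, 70 to 63 bases before its start, and TATA matches. The windows differed in composition. Kit and Slc5a8 had 17 CpG dinucleotides each, against 3 in Lcn2, 4 in Ltf, 2 in Slpi and a median of 6 over all windows, and the GC content was 70.8% for Kit and 42.0% for Slpi, with a median of 52.4%. Among the windows not shown, that of Kitl had 23 CpG dinucleotides and a GC content of 69.2%, and those of Cp had 2 CpG dinucleotides each. The motif matches are a description of letters, not of binding.

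Total counts over all transcripts were between 69759793 and 85126630 per library. The table of EL replicate 1 is incomplete and gives the lowest total. Over all tested genes the libraries of a group lay close to each other, with correlations of log2 CPM of at least 0.995, against at most 0.847 between the groups. CPM are counts scaled to a common library total with TMM factors, which set the libraries to a common level over most genes. The groups differed widely. The edgeR quasi-likelihood test called 80.7% of 13844 tested genes at an adjusted p under 0.05, 39.9% higher and 40.8% lower in PT. Against this background, that a gene was called says little by itself, and the sizes of the changes are what the following values describe.

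All 9 genes were higher in PT than in EL spheres and called so (background 39.9%), with no overlap between the libraries of the groups (41% of all tested genes were higher with no overlap). The median log2 fold change of the 9 was 1.42, beside 0.00 over all tested genes. They fell into 2 sizes of change. Slc5a8, Sftpd and Kit were 13.4-fold, 8.94-fold and 8.48-fold higher, and 0.665% of tested genes were called and over 8-fold higher. The other 6 were between 1.40-fold and 2.82-fold higher. The plot of CPM by library shows every value.

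**Figure D1:**
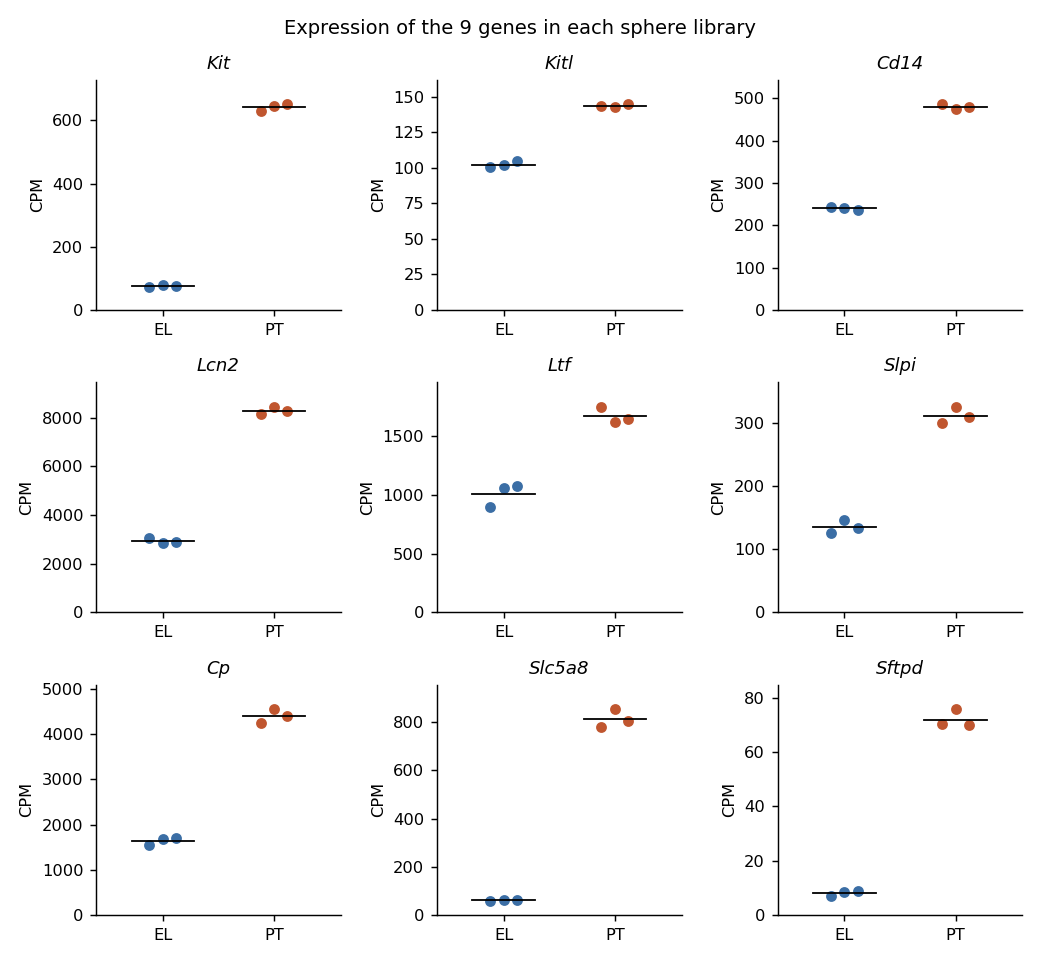
Each panel plots 1 gene: points are the CPM of the 3 EL and 3 PT libraries, black bars the group means, and the axis starts at 0. The PT points lie above the EL points in all 9 panels, by the widest ratio for Slc5a8 (55.95 to 63.7 CPM in EL, 779 to 854 in PT).

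Kit is the receptor of the set. Its CPM were 72.1, 80.1 and 74.9 in EL replicates 1 to 3 and 629, 646 and 650.4 in PT replicates 1 to 3. The 3 PT libraries were high and differed little from each other, and the lowest of them lay far above the highest EL library. The log2 fold change was 3.08 (SE 0.04; edgeR adjusted p = 1.21e-15), and 0.614% of tested genes rose more. The 2 Kit transcripts in the tables carried identical counts in each library, so the isoforms of the receptor cannot be told apart here.

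Kitl, the ligand, stood at 100.4, 102 and 105 CPM in EL and at 144, 143 and 145 in PT. The groups did not overlap, although the step between them was the smallest of the 9 (log2 fold change of 0.49 with SE 0.03; edgeR adjusted p = 5.77e-09), and 20.2% of tested genes rose more. The balance of receptor and ligand turned over: the ratio of Kit to Kitl counts was 0.718, 0.786 and 0.716 in EL and 4.38, 4.53 and 4.50 in PT. Kit counts were below Kitl counts in each EL library and above them in each PT library. On the log2 scale the ratio was -0.44 ± 0.08 (SD, n = 3) in EL and 2.16 ± 0.03 (n = 3) for PT, which is 2.59 apart (exact two-sided permutation p = 0.1, the smallest that 3 libraries against 3 allow). Kit and Kitl transcripts are of like length (5214 and 5648 bases), so this ratio is close to one per length.

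Kit lies on chromosome 5 (75574987 to 75656722, plus strand) between 2 other receptor kinase genes. Pdgfra, the platelet-derived growth factor receptor of fibroblasts, is its nearest protein-coding neighbour on the side of lower coordinates, 376781 bases away, and Kdr, a receptor for vascular endothelial growth factor, is the nearest on the other side, 276105 bases away. Pdgfra had 422, 374 and 409 CPM in EL and 7.53, 7.57 and 8.17 in PT. Kdr had 15.2, 13.7 and 14.6 CPM in EL and 0.429, 0.562 and 0.431 in PT. Both neighbours thus fell (log2 fold changes -5.69, SE 0.06, and -4.93, SE 0.12; adjusted p = 1.83e-16 and 4.81e-13 by edgeR) while Kit rose. The fibroblast and endothelial marker lists fell with them, in 10 of 10 members each, with medians of -6.68 and -5.67, led by Col3a1 (-7.50) and Dcn (-7.21) and by Cldn5, which had 1 count in PT, and Cdh5 (-8.26), and their part in these 2 changes was not tested. The receptor Csf1r, a relative of Kit carried by macrophages, had 16.2 ± 1.90 CPM in EL against 18.1 ± 1.95 for PT (adjusted p = 0.115 by edgeR).

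Lcn2 was the most abundant of the 9 by count. It had 3071, 2863 and 2887 CPM in EL and 8141, 8445.5 and 8257 in PT. EL replicate 1 was the highest of its group, and every PT library lay far above it. The log2 fold change was 1.49 (SE 0.04; edgeR adjusted p = 5.42e-13), and 4.82% of tested genes rose more. Lcn2 alone held 0.270 ± 0.0114% of the counts over the chosen transcripts in EL against 0.902 ± 0.0158% for PT (SD, n = 3 in either group).

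Ltf, lactoferrin, had 897, 1062 and 1075 CPM in EL and 1749.9, 1621 and 1644 in PT. EL replicate 1 was low and PT replicate 1 high, and the groups stayed apart. Its log2 fold change was 0.73 (SE 0.06; edgeR adjusted p = 1.15e-07), the smallest after that of Kitl.

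Slpi, the protease inhibitor, had 127, 147 and 134 CPM in EL and 300.3, 326 and 309 in PT. Its PT libraries all lay above all EL libraries (log2 fold change of 1.20 with SE 0.05; edgeR adjusted p = 9.00e-11). Cd14 had 243, 242 and 236 CPM in EL and 486, 476 and 479.8 in PT. It was the gene with the least spread within EL (a coefficient of variation of 1.61%) and was close to 2-fold higher in the PT libraries (log2 fold change of 1.00 with SE 0.03; edgeR adjusted p = 2.25e-12).

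Cp, ceruloplasmin, had 1554, 1689 and 1694 CPM in EL and 4244, 4549.9 and 4392 in PT. The log2 fold change was 1.42 (SE 0.04; edgeR adjusted p = 2.91e-12), the median of the 9. The chosen Cp transcript, NM_007752, holds 648 bases of exon that NM_001276250 lacks, and lacks 711 that the latter holds. NM_001276250 carried 6.51% to 7.14% fewer counts in EL and 7.39% to 7.56% fewer in PT. The chosen transcript also holds 690 bases that NM_001276248 lacks, and lacks 1165 that the latter holds. NM_001276248 carried 6.60% to 7.23% and 7.49% to 7.68% fewer. These shares are net of the unshared bases on both sides. The 3 transcripts rose together, and the small rise of these shares was not tested.

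Slc5a8, the monocarboxylate carrier, had 55.95, 63.7 and 61.7 CPM in EL and 779, 854 and 805 in PT. Its rise was the largest of the 9 (log2 fold change of 3.75 with SE 0.05; edgeR adjusted p = 1.81e-15), and 0.231% of tested genes rose more. Sftpd, the collectin, was the least abundant in EL, with 7.12, 8.31 and 8.77 CPM, and had 70.5, 75.8 and 69.9 in PT. Its EL counts were 290, 330 and 352 and its PT counts 3614, 4050 and 3892, and its relative spread in EL was 10.5%, the largest of the 9. The log2 fold change was 3.16 (SE 0.06; edgeR adjusted p = 6.91e-14).

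Levels of different genes can be set side by side only per length of transcript. In CPM per kilobase, Lcn2 led in both groups, at 3213 ± 124 in EL against 9050.3 ± 168 for PT (SD, n = 3 in either group). Cp (408 ± 19.8) and Ltf (369 ± 36.3) came next in EL. Their ranges overlapped, but Cp was above Ltf within each EL library (386, 419 and 421 against 327, 387 and 392). The ranges of Slpi (155 ± 11.8) and Cd14 (147 ± 2.36) overlapped too. Slpi was below Cd14 in EL replicate 1 (144.5 against 148.2) and above it in EL replicates 2 and 3. Below them were Kitl (18.1 ± 0.371), Kit (14.5 ± 0.777), Slc5a8 (11.3 ± 0.753) and Sftpd (6.33 ± 0.666), whose ranges were separate. In PT no neighbours in the order overlapped. The upper 5 kept their order, at 1091 ± 38.0 for Cp, 610 ± 25.0 for Ltf, 356 ± 14.7 for Slpi and 293 ± 3.04 for Cd14. The order of the lower 4 changed to Slc5a8 (152 ± 7.06), Kit (123 ± 2.21), Sftpd (56.5 ± 2.57) and Kitl (25.4 ± 0.178). The 9 genes together held 0.571 ± 0.00535% of the counts over the chosen transcripts in EL and 1.83 ± 0.0309% in PT, and the groups were separate (p = 0.1 by the same exact two-sided test).

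**Figure D2:**
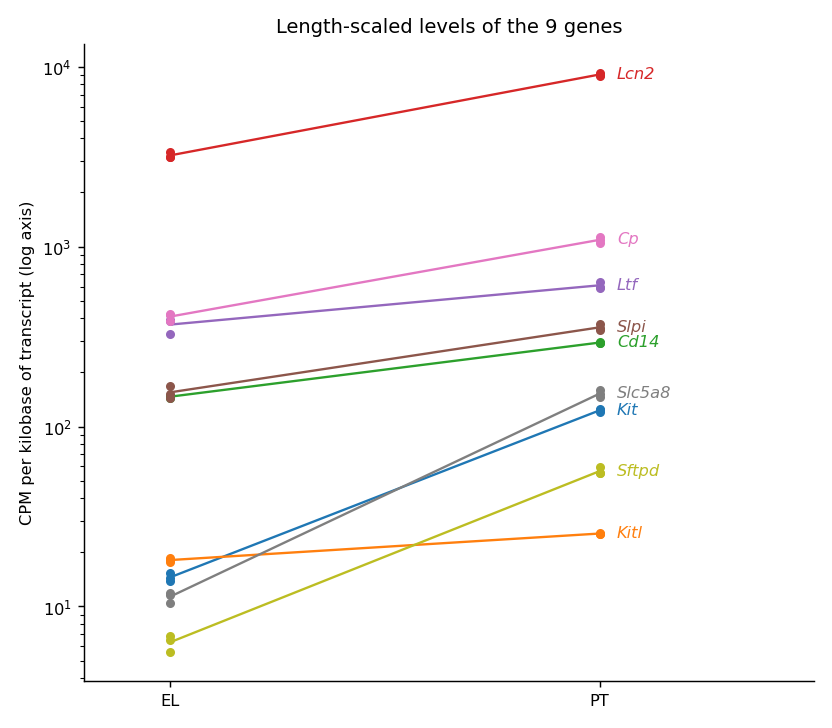
CPM per kilobase of transcript on a log axis, with 1 point per library and lines joining the group means of each gene. Lcn2, Cp, Ltf, Slpi and Cd14 run at higher levels with shallow lines, and the lines of Slc5a8, Kit and Sftpd cross that of Kitl, which ends lowest in PT (25.4).

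The luminal epithelium markers rose in PT as well, and the fibroblast markers fell, so the 9 genes were also measured against the former. In bulk RNA, more cells of a type and more RNA of a gene per cell cannot be told apart. Summed CPM of Epcam, Cdh1, Krt8, Krt18, Cldn3, Cldn4 and Cldn7 ran from 2166 to 2221 in EL and from 7867 to 8207 in PT, and all 7 were called higher (median log2 fold change 2.01). Epcam, an adhesion protein of epithelium, rose by 1.28 (SE 0.03) and the keratin Krt8 by 2.01 (SE 0.03). When the geometric mean count of these 7 genes was used as the library size, Kit, Slc5a8 and Sftpd were still higher in PT. Their log2 fold changes on this scale were 1.20 (SE 0.04), 1.87 (SE 0.05) and 1.28 (SE 0.07), with adjusted p = 2.28e-16, 8.21e-19 and 1.35e-13 by edgeR. On this scale 1.95% of tested genes were called higher and 95.8% lower, and the median of all tested genes was -1.88.

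The other 6 genes turned to lower values on the luminal scale. Kitl was at -1.39 (SE 0.04), Ltf at -1.16 (SE 0.06), Cd14 at -0.88 (SE 0.04), Slpi at -0.68 (SE 0.05), Cp at -0.47 (SE 0.05) and Lcn2 at -0.39 (SE 0.05), all called by edgeR, with adjusted p between 1.02e-17 for Kitl and 1.20e-07 for Lcn2. The 7 markers themselves spread from -0.61 (Epcam) to 0.64 (Cldn4) on that scale. Lcn2 and Cp lay inside that spread, Slpi, Cd14, Ltf and Kitl below it, and Kit, Sftpd and Slc5a8 above it. A scale from Krt8 and Krt18 alone, or from the other 5 markers alone, gave the same 3 genes above and 6 below 0. The markers are a ruler from genes that were known to rise, not a count of cells.

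**Figure D3:**
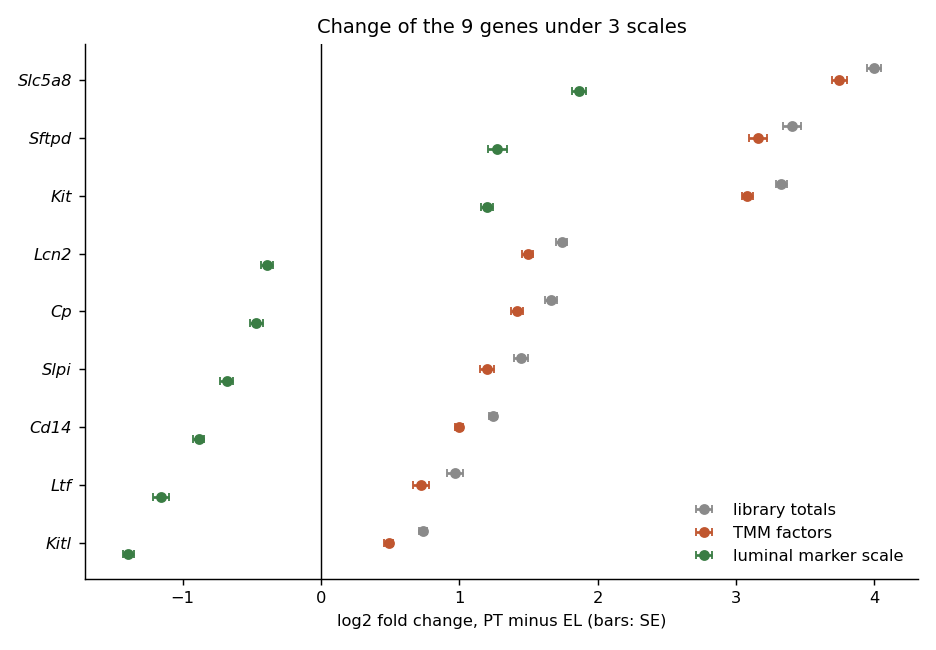
Log2 fold change of PT over EL for each gene, with SE bars, on library totals (grey), TMM factors (orange) and the scale of 7 luminal markers (green). Slc5a8, Sftpd and Kit stay to the right of 0 on all 3 scales, and the other 6 lie to the left on the luminal scale, from Lcn2 at -0.39 to Kitl at -1.39.

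Several of the 9 genes are also made by cells other than luminal epithelium, and marker lists of those cells were measured in the same libraries. For comparison, 39.9% of all tested genes were called higher in PT and 40.8% lower. Mast cells and melanocytes carry Kit. The 9 mast cell markers summed to 9.63 to 10.96 CPM in EL and 0.351 to 0.543 in PT, with Fcer1a at 0 counts in all libraries and 3 of 3 tested members lower, among them Tpsab1 (-4.90, SE 0.18) and Gata2 (-4.11, SE 0.31). Cpa3, Mcpt4, Cma1 and Ms4a2 had at most 4 counts in either group, so the mast cell sum rests on the other members of that list. The 6 melanocyte markers summed to at most 4.13 CPM in EL and 1.97 in PT, and the defining enzyme gene Tyr had no count. Of the 2 tested, Mlana fell (log2 fold change -4.40, SE 0.32). Pmel did not pass (0.02, SE 0.17, edgeR adjusted p = 0.904), at 1.80 ± 0.344 CPM in EL and 1.83 ± 0.0593 in PT. Pmel made up most of the sum in PT. Both sums were lower in PT, where Kit was higher, and the part of these cells in the Kit values was not tested.

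Neutrophils carry Lcn2, Ltf, Slpi and Cd14. Of their 13 markers 12 were in the tables, and their sum fell from 50.4 to 58.1 CPM in EL to 17.1 to 18.9 in PT, with 4 of 5 tested members lower. Prtn3 and S100a8 had log2 fold changes of -2.92 and -1.46, and Retnlg had no count. Macrophages carry Cd14 and Slpi, and their 11 markers summed to 548 to 727 CPM in EL and 1017 to 1135 in PT. Of the 11, 10 were higher in PT and none lower, with Cx3cr1 at 4.40 and C1qb at 2.86 on the log2 scale. On the luminal scale 5 of the 11 were higher and 6 lower (1.95% and 95.8% of all tested genes). Their part in the rises of Cd14 and Slpi was not tested. The 9 basal epithelium markers summed to 503 to 556 CPM in EL and 615 to 649.5 in PT and went both ways, with 3 higher, among them Oxtr and Krt17, and 6 lower, among them Krt5 and Myh11.

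The tissue label of the EL samples names lung beside mammary, and Sftpd was first known from lung. Of 12 lung epithelium markers, Sftpa1, Scgb1a1, Scgb3a2, Nkx2-1 and Cldn18 had no count in any library, which allows up to 0.0108 CPM over the 6 libraries for each (3 counts; counting error only). Sftpb had 1 count in each group, and Sftpc 9 in EL and 32 in PT. Of the 4 markers with enough counts for a test, Foxj1 (log2 fold change 2.87, SE 0.07) and Abca3 (1.38, SE 0.03) were higher in PT, and Ager (0.17) and Napsa (-0.27) did not pass. The summed level of the list was 77.8 to 79.0 CPM in EL and 228 to 238 in PT, so it was higher in PT with no overlap, as Sftpd was. Abca3 made up most of it, with 68.5 ± 0.720 CPM in EL against 178 ± 2.96 for PT. The part of lung epithelium in the rise of Sftpd was not tested.

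**Figure D4:**
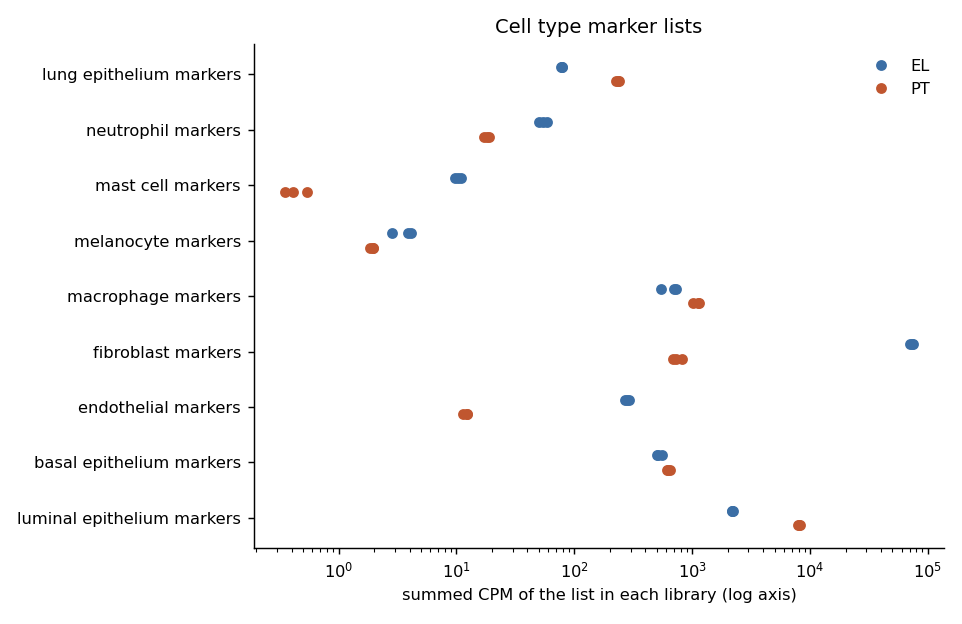
Summed CPM of each marker list on a log axis, with 1 point per library, EL in blue and PT in orange. Luminal, macrophage, lung and basal epithelium sums are higher in PT, fibroblast, endothelial, mast cell, melanocyte and neutrophil sums are higher in EL, and the mast cell sum stays under 11 CPM in all 6 libraries.

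Genes that act with the 9 were read from lists drawn up with earlier results of these data known. Several lists hold genes of the set of 9, which are counted in them. Over all tested genes 39.9% were called higher and 40.8% lower, and 1.95% and 95.8% on the luminal scale. Counts near these shares say little about a list. Of 24 genes of Kit signalling, 10 were called higher and 11 lower, with a median of -0.09. Kit led the rises, and Gab1, a docking protein downstream of receptor kinases, followed (log2 fold change 1.61, SE 0.03). The largest falls were those of Socs1, an inhibitor of cytokine signalling (-2.79, SE 0.12), and Mitf, the melanocyte and mast cell factor that Kit signals act on (-2.45, SE 0.07). In the list of other receptor kinases of Kit's class and their ligands, 3 of 10 tested genes were higher, with Pdgfb at 0.74 and Pdgfa at 0.63, and 5 were lower, led by Pdgfrb at -6.20. With library totals 5 were higher (57.1% of all tested genes were called higher on that scale and 29.7% lower). On the luminal scale the 1 Kit signalling gene that was higher was Kit itself, and 23 were lower. All 10 of the receptor list were lower on that scale.

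Regulators and surface markers of luminal progenitors were mostly higher: 14 of 18 passed upward and 3 downward (39.9% and 40.8% of all tested genes). Their median was 0.84. Ehf and Elf5, ETS factors of luminal progenitor and alveolar cells, rose. Ehf went from 211 to 787 CPM, a log2 fold change of 1.90 (SE 0.04), and Elf5 from 106 to 235, one of 1.15 (SE 0.03). Mybl1 rose by 1.71 (SE 0.09). Aldh1a3, the aldehyde dehydrogenase used to mark progenitors, moved little (23.3, 27.7 and 29.0 CPM in EL, 30.8, 29.2 and 30.5 in the PT libraries; log2 fold change of 0.18 with SE 0.07; edgeR adjusted p = 0.0291). Id4 (-5.45) and Rspo1 (-2.54) fell most. On the luminal scale none of these 18 genes was higher and 16 were lower (1.95% and 95.8% of all tested genes). Of 10 tested hormone-sensing genes 4 were higher and 5 lower (median -0.46), with Spdef at 2.56 and Gata3 at 1.85 against Tnfsf11 at -8.54 and Tbx3 at -5.93, and on the luminal scale none was higher and 8 were lower.

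Other secreted proteins of milk and defence went both ways. Of 25 tested, 13 were higher and 11 lower (39.9% and 40.8% of all tested genes), with a median of 0.20. With library totals 6 were lower (29.7% of all tested genes). On the luminal scale 6 were higher and 18 lower (1.95% and 95.8% of all tested genes). The milk proteins Csn1s2a (5.37, SE 0.08), Lalba (4.66, SE 0.15), Csn3 (2.38, SE 0.04), Csn1s2b (3.26, SE 0.51) and Csn1s1 (0.99, SE 0.05) rose. Csn2, beta-casein, fell (-2.40, SE 0.42), from 85 counts in EL to 21 in PT, and Wap, whey acidic protein, had 38 and 58 counts and did not pass (edgeR adjusted p = 0.651). The acute phase proteins Saa3 and Hp fell, Saa3 from 632 ± 113 to 8.02 ± 0.107 CPM and Hp from 302 ± 24.7 to 4.44 ± 0.617, log2 fold changes of -6.30 (SE 0.12) and -6.08 (SE 0.08). In the same list Saa1 (-0.42), Saa2 (-0.29), Lrg1 (-0.31) and Lbp (0.09) changed far less. Lcn2, itself an acute phase protein, rose in the same libraries.

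In the Toll-like receptor list around Cd14, 14 of 23 genes were called higher and 2 lower (39.9% and 40.8% of all tested genes). The median was 0.23, and 1 was lower with library totals or without PT replicate 2. On the luminal scale none was higher and all 23 were lower (1.95% and 95.8% of all tested genes). Tlr4, the receptor that Cd14 serves, rose from 39.2 ± 0.106 to 64.0 ± 0.328 CPM (a log2 fold change of 0.71, SE 0.03) and Tlr2 rose by 0.95 (SE 0.03). Ly96, the other part of the lipopolysaccharide receptor, was low and fell slightly, from 4.88 ± 0.401 to 3.88 ± 0.308 CPM (a change of -0.33, SE 0.11; adjusted p = 0.0146 by edgeR), and the adaptor Myd88 fell by 0.44 (SE 0.04). The feedback inhibitors Tnfaip3 (1.58, SE 0.04) and Nfkbia (1.31, SE 0.04), both NF-kB targets, led the rises.

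Iron and copper genes went mostly against Cp. Of 23 tested, Cp among them, 5 were higher and 17 lower (39.9% and 40.8% of all tested genes), with a median of -0.66. On the luminal scale none was higher (1.95% of all tested genes). Heph, a ferroxidase of the same family as Cp, fell from 22.0 ± 2.06 to 0.992 ± 0.246 CPM (a change of -4.46, SE 0.13), and the iron exporter gene Slc40a1 from 36.8 ± 1.70 to 24.8 ± 1.77 CPM (a change of -0.57, SE 0.06). Slc22a17, a receptor for lipocalin 2, rose from 9.61 ± 0.722 to 18.1 ± 0.606 CPM (a change of 0.92, SE 0.07), and Lrp2, another such receptor, had 8 counts in each group. The largest falls were those of Steap1 (-5.41) and Lrp1 (-5.27). Fibroblast and endothelial markers fell with this list, and their part in it was not tested.

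Within the gene families of the 9, the changes differed between members. Of all tested genes 39.9% were called higher and 40.8% lower. Wfdc18, a protein of the same disulfide core family as Slpi, rose from 177, 192 and 193 CPM to 1616, 1573 and 1578 (log2 fold change 3.08, SE 0.04), while Wfdc2 was at 119 ± 3.28 and 112 ± 7.67 CPM (adjusted p = 0.0908 by edgeR). Of 7 tested family members 3 were higher and 1 lower, and the latter number was 0 without EL replicate 3, PT replicate 1 or PT replicate 3 and 2 without EL replicate 1 or PT replicate 2. On the luminal scale 1 was higher and 6 lower (1.95% and 95.8% of all tested genes). Of 11 tested Slc5 genes and monocarboxylate carriers 6 were higher and 2 lower, or 4 lower without PT replicate 1, and 3 higher and 7 lower on the luminal scale. Slc5a5, the iodide carrier, rose by 3.74 (SE 0.19) from 38 counts in EL to 680 in PT. The 3 proton-linked monocarboxylate carriers of the list went both ways. Slc16a1 and Slc16a3 fell, from 96.7 ± 3.40 to 27.9 ± 1.33 CPM (a change of -1.79, SE 0.04) and from 260 ± 36.2 to 7.47 ± 0.852 CPM (a change of -5.12, SE 0.11). Slc16a7, another carrier of that group, rose from 1.82 ± 0.168 to 6.81 ± 0.752 CPM (a change of 1.90, SE 0.13). In the collectin list Sftpd and Colec12 were the 2 genes with enough counts for a test, and Colec12 fell by 4.29 (SE 0.06).

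**Figure D5:**
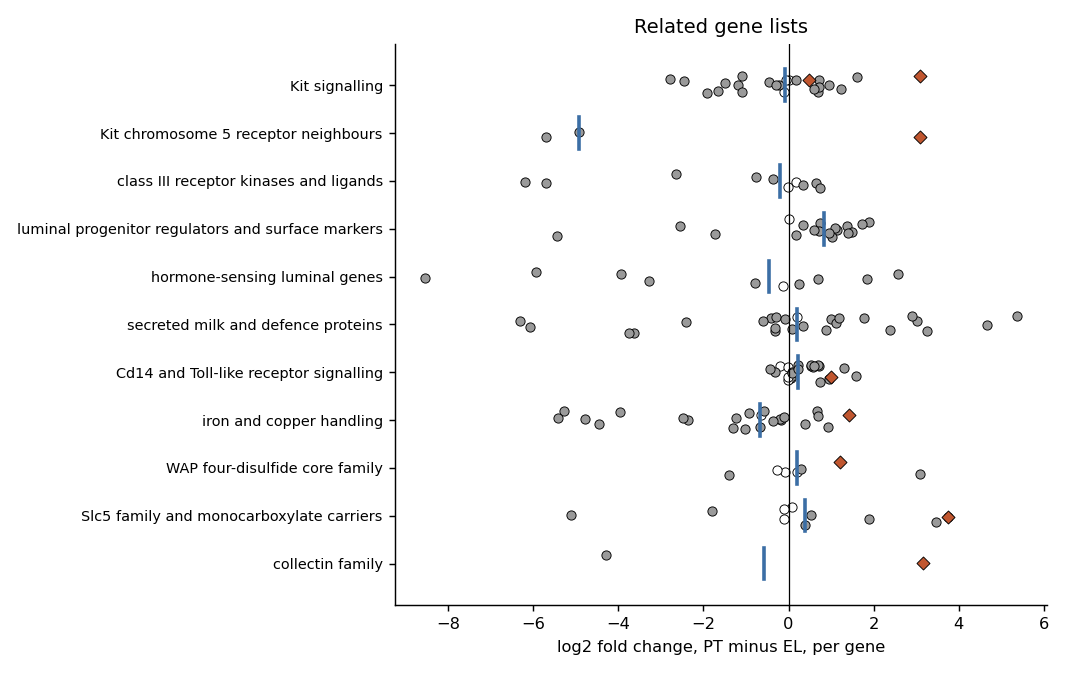
Log2 fold changes of the tested genes in 11 related lists: orange diamonds are genes of the set of 9, grey circles other called genes, open circles genes that did not pass, and blue bars list medians. The diamonds lie to the right of 0 (that of Slc5a8 covers the circle of Slc5a5), while the iron and copper list has its median at -0.66 and the Kit signalling list at -0.09.

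The patterns most like those of Kit and Lcn2 were searched among tested genes with a mean count of at least 100, by the root mean square difference of log2 CPM centred on each gene's mean over the 6 libraries. Nearest to Kit were Wfdc18 (a difference of 0.0413), Sorbs2 (0.0427), Ccl28 (0.0591), Muc15 (0.0602) and Eppk1 (0.0629), with log2 fold changes between 3.01 and 3.19. Nearest to Lcn2 were Arhgef19 (0.0190), Tmc4 (0.0231), Cldn7 (0.0234), Hip1r (0.0239) and Pawr (0.0245), with log2 fold changes between 1.49 and 1.51. With 2 groups, this measure mostly reads the size of the change.

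The 9 genes lie on 7 chromosomes. Slc5a8 (88885992 to 88929515) and Kitl (100015615 to 100100416) share chromosome 10, Lcn2 (32384637 to 32387739) and Slpi (164354070 to 164356507) chromosome 2, Cp is on chromosome 3 (19956933 to 20009750), Ltf on chromosome 9 (111019292 to 111042766) and Sftpd on chromosome 14 (41172212 to 41185198). No exon of another annotated gene overlapped the chosen transcripts, except 1 base of a microRNA gene in Slpi. Cd14 is on chromosome 18. Some nearest protein-coding neighbours rose too, whereas Pdgfra and Kdr beside Kit fell, as given above. Ano4, 19417 bases from Slc5a8, had 1.77 ± 0.330 CPM in EL against 7.57 ± 0.346 for PT (log2 fold change 2.09, SE 0.13), and Ccrl2, 12068 bases from Ltf, had 10.6 ± 1.66 and 44.6 ± 1.02 (2.07, SE 0.08). Tmco6, 8204 bases from Cd14, had 9.11 ± 0.551 and 14.9 ± 1.16 CPM (0.71, SE 0.08). Matn4 beside Slpi (0.25), Ptges2 beside Lcn2 (0.50), Hltf beside Cp (0.35) and Utp20 on the other side of Slc5a8 (0.21) changed less. E230025N22Rik on the other side of Cd14 did not pass (0.53, adjusted p = 0.0645 by edgeR). Rtp3 on the other side of Ltf had 16 counts in EL and 2 in PT, too few for a test. Csl and Gm4301 beside Kitl, Svs5 beside Slpi and Mbl1 beside Sftpd also had too few.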

How the data were processed

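The deposited tables give, for each RefSeq transcript, the raw counts of the authors, without normalisation. STAR, featureCounts, DESeq2 and the builds mm10 and hg19 are named in the submitters' processing notes, with no version, strand setting or annotation release, which were not given in the sources used here. A transcript's count can include reads of other transcripts of its gene. The table of EL replicate 1 breaks off after 27664 of 33068 rows, so rows in all 6 tables were used. Of these, 1 transcript per symbol, the highest by mean count, entered edgeR 4.0.16 (R 4.3.3), with filterByExpr, TMM factors, a quasi-likelihood test of PT against EL, Benjamini-Hochberg adjustment over 13844 genes and a threshold of 0.05. SE are the log2 fold change divided by the square root of F. In a simulation on 13728 genes, 95.5% of 198 genes changed 2-fold were recovered, with 13 false calls among 202. Only these 198 of the 13728 were changed, whereas 80.7% of 13844 tested genes were called in the data. Recovery where most genes change was not tested. Log2 CPM for the pattern search used a prior count of 2. Transcript lengths are from GENCODE M21, and gene positions and promoters from RefSeq (GRCm38.p6).

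The 9 genes, the 20 lists (254 symbols, of which 4 had no row in all 6 tables) and the tests were chosen with earlier results of these data known. Named are the 9, 22 partners fixed with them, from each list the 2 called genes with the largest rise and the 2 with the largest fall at a mean count of at least 20, the 5 nearest patterns of Kit and of Lcn2, and neighbours on the chromosome. The neighbours and Slc16a7, Csn1s1, Csn1s2b, Csn2, Wap, Ager, Napsa, Pmel, Saa1, Saa2, Lrg1 and Lbp were added after their values had been seen. So were Slc5a1, Csf3r, Mmp8, S100a9, Cpa3, Mcpt4, Cma1 and Ms4a2. Alternatives tried were upper-quartile and RLE scaling, totals alone, the luminal marker scale, DESeq2 1.42.0, limma-voom (limma 3.58.1), 2 count filters, summed or first transcripts, a replicate block and each library left out.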

Additional observations from a re-analysis of the deposited data

How the results depend on the processing

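All 9 genes were called higher in PT, and none lower, with RLE and upper-quartile factors, library totals, DESeq2, limma-voom, both count filters, summed and first transcripts, the replicate block and each library left out. The exception was the luminal marker scale, where 3 were called higher and 6 lower: Kitl at -1.39, Cd14 at -0.88, Lcn2 at -0.39, Ltf at -1.16, Slpi at -0.68 and Cp at -0.47. This follows from the scale, which moves the median of all genes by -1.88. Library totals moved it by 0.25 and made 65.8% instead of 49.5% of all calls higher in PT. Deviations of same-numbered libraries from their group means correlated at 0.0222, 0.00839 and -0.00216, which shows no sign of pairing by replicate number. It cannot exclude a pairing, since these deviations may be technical. The fit with the replicate block called 11203 genes, against 11173. Leaving out 1 library gave 10758 to 11283 calls over all genes, 9 of 9 for the set, 3 higher and 6 lower on the luminal scale, a Kit to Kitl difference of 2.57 to 2.64 and a difference in share of 1.24 to 1.27 percentage points. The depth limits Sftpd most, with 290 counts in EL replicate 1.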
